A study of Boehmeria nivea with 2 samples.

Results

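The unigenes comp16233_c0, comp31941_c0 and comp32330_c0 are 3 of the 46533 unigenes assembled from ramie (Boehmeria nivea) leaves, and each was annotated as a pathogenesis-related protein 1 (PR-1). They were chosen by their read counts and RPKM in these same libraries, for lying in opposite directions, so their differences are given as a description with no test. A unigene is a gene-level unit of a transcriptome assembled without a genome. Plants of ramie cultivar Chuanzhu No.8, 30 days old and grown from cut shoots, were the material of both libraries. For the challenged library (CH), 2 J2 larvae of the ramie moth (Cocytodes coerulea) were placed on leaf 4 counted from the shoot apex. The control library (CK) came from plants that the labels call mock-challenged in one place and unchallenged in another. The 2 topmost leaves without damage were taken, so the RNA came from leaves on which the larvae had not fed. Leaves of 5 plants were pooled at each of 12, 24, 48 and 72 h, and the RNA of the 4 times was mixed in equal parts into 1 library per group. Plant-to-plant spread and the course over time can therefore not be read from these data, and no difference has a replicate check.

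PR-1 proteins are small secreted proteins of the CAP superfamily, which collect in the space between plant cells. In Arabidopsis and tobacco the acidic PR-1 gene is the usual marker of salicylate-dependent defence and of systemic acquired resistance, the state in which leaves far from an attack are primed. Plant genomes carry several PR-1-like genes, and in tobacco a basic form is known to respond to ethylene and jasmonate. Leaf chewing by caterpillars is usually associated with jasmonate signalling, which can act against salicylate signalling.

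Counted fragments numbered 17800062 in CK and 26938918 in CH, and 37321 and 40172 unigenes had at least 1 read. Fewer cells of a type and less RNA per cell cannot be told apart in such bulk libraries. Leaf markers were present in both libraries but differed in share. Unigenes of the rubisco small subunit held 1.44% of reads in CK and 0.337% in CH, those of rubisco activase 2.47% and 0.996%, and those of light-harvesting proteins 3.66% and 1.71%. Unigenes with a best hit to a fungus or oomycete held 0.135% of reads in CK and 0.240% in CH, and the 5 among them nearest to the insect-infecting fungus Beauveria held 0.00976% and 0.0987% (1738 and 26577 reads). All 12 unigenes of the PR-1 list had a best hit in a land plant. The part of the marker shares in the PR-1 differences was not tested.

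In the CK library comp16233_c0 was the most abundant PR-1 unigene, and in the CH library comp32330_c0 was. The former was 13.7-fold lower and the latter 18.1-fold higher in CH, and comp31941_c0, a less abundant PR-1 unigene, was 15.4-fold lower. The reads of all PR-1 unigenes together differed far less, with 92.7 CPM (reads scaled to the library total) in CK and 101.3 CPM in CH. The annotation and the values of each unigene follow.

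Unigene comp16233_c0 was 848 bp long, and its best hit in the Nr database was isoform 1 of PR-1 from the fig Ficus pumila var. awkeotsang. The CK library held 822 of its reads and the CH library 91, although the CH library was the deeper. Its RPKM (reads scaled to unigene length and library total) was 61.11 in CK, with an exact 95% counting interval of 57.0 to 65.4. Its RPKM in CH was 4.44 (3.58 to 5.46). It thus stood high among expressed unigenes in CK, at percentile 94.7 of RPKM, and at percentile 69.3 in CH. Percentiles are over the unigenes with a nonzero RPKM in the library, 37324 in CK and 40174 in CH. Per library total, the reads of comp16233_c0 were 13.7-fold lower in CH, with an exact 95% interval of 11 to 17.2 and a log2 ratio of -3.77. All such intervals cover counting error only.

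Unigene comp31941_c0 was 909 bp long, and its best hit was a PR-1-like protein of the strawberry Fragaria vesca. The CK library held 193 of its reads and the CH library 19. Its RPKM was 13.28 (11.5 to 15.3) in CK and 0.86 (0.517 to 1.34) in CH. It went from percentile 78.2 of the expressed unigenes in CK to percentile 48.7 in CH. Per library total, comp31941_c0 was 15.4-fold lower in CH (9.58 to 26.1), a log2 ratio of -3.94. The wider interval comes with the 19 reads in CH.

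Unigene comp32330_c0 was 846 bp long, and its best hit was isoform 4 of PR-1 from Ficus pumila var. awkeotsang. The CK library held 85 of its reads and the CH library 2328. Its RPKM was 6.34 (5.06 to 7.83) in CK and 114.01 (109 to 119) in CH. This took comp32330_c0 from percentile 69.4 of the expressed unigenes in CK to percentile 97.5 in CH. Per library total, it was 18.1-fold higher in CH (14.6 to 22.7), a log2 ratio of 4.18.

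**Figure D1:**
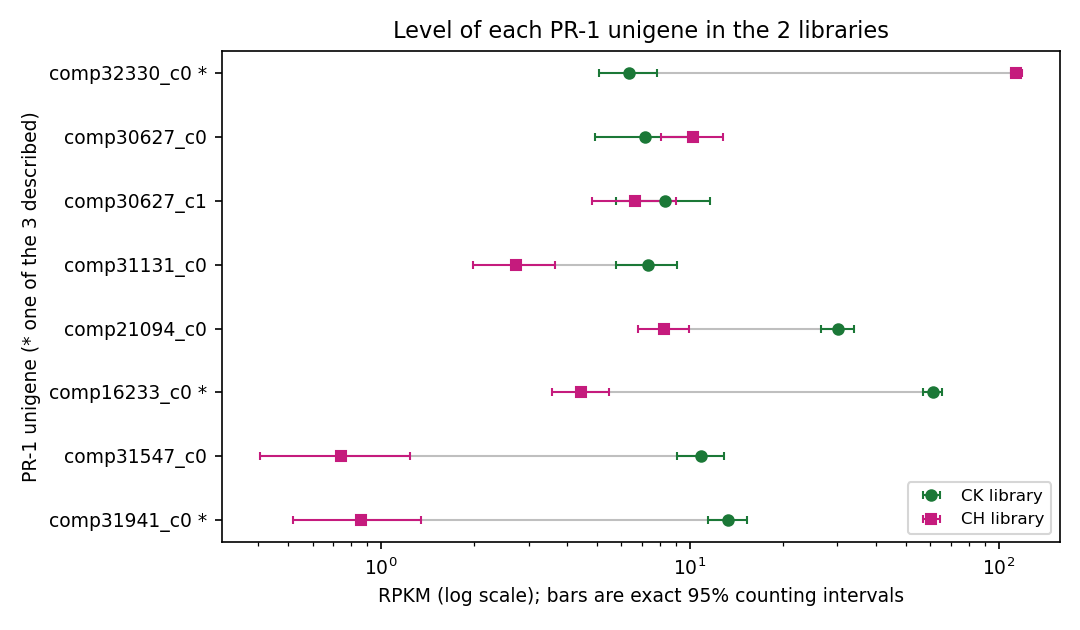
RPKM (horizontal, log scale) of the 8 PR-1 unigenes with at least 10 reads in the CK library (circles) and the CH library (squares), with exact 95% counting intervals, 1 library per group. comp32330_c0 lies at 6.34 in CK and 114.01 in CH, while comp16233_c0 lies at 61.11 and 4.44 and comp31941_c0 at 13.28 and 0.86.

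The plot of PR-1 levels by library shows that the CK and CH intervals of these 3 unigenes lie far apart. The order of levels per length changed accordingly. In CK, comp16233_c0 stood first of the 8 PR-1 unigenes with at least 10 reads and comp32330_c0 stood last. The interval of comp16233_c0 was apart from that of the next unigene, comp21094_c0, and the interval of the latter was apart from that of comp31941_c0. From comp31941_c0 at place 3 down to comp32330_c0 at place 8, each unigene overlapped with its neighbour in counting interval. In CH, comp32330_c0 stood first, with an interval apart from all others. There comp16233_c0 was at place 5, overlapping with its neighbours, and comp31941_c0 at place 7 overlapped only with comp31547_c0 below it.

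Each of the 3 unigenes consisted of 1 assembled transcript and had counts deposited as exact whole numbers in both libraries, with no tolerance. Of all unigenes with at least 10 reads, 62.2% had exact whole-number counts in both. No other unigene carried the component number of any of the 3. How far the counting divided reads between similar PR-1 transcripts was not tested.

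Reads of comp16233_c0 and comp32330_c0 can be set against each other within a library, which takes out the scaling between libraries. In CK there were 9.67 reads of comp16233_c0 for each read of comp32330_c0 (7.73 to 12.2). In CH there were 25.6 reads of comp32330_c0 for each read of comp16233_c0 (20.7 to 31.9). The reads of comp32330_c0 per read of comp16233_c0 were thus 247-fold higher in CH than in CK (180 to 340). Against comp31941_c0, the same shift was 278-fold (163 to 492).

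The ratio of the lower pair to each other differed by less than counting error. There were 4.26 reads of comp16233_c0 per read of comp31941_c0 in CK (3.64 to 5.01) and 4.79 in CH (2.90 to 8.32). The reads of comp31941_c0 per read of comp16233_c0 were 0.889 times as many in CH as in CK, with an interval of 0.499 to 1.51. A difference inside that interval was not detectable at this depth.

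The annotation separates the 3 unigenes differently from their levels. The unigenes comp16233_c0 and comp32330_c0, which moved in opposite directions, both had the Arabidopsis PR-1 protein as best hit in Swiss-Prot and carried the same 18 Gene Ontology (GO) terms. That set of terms was found on 6 unigenes, all of them in the PR-1 list, and includes salicylate biosynthesis, salicylate-mediated systemic acquired resistance and jasmonate-mediated signalling. Unigene comp31941_c0 had the PR-1 of Medicago truncatula as best hit and carried 11 terms, a set found on no other unigene. Only 4 terms were shared by all 3, namely responses to vitamin B1 and to water deprivation, the cell wall and the extracellular region. The general term systemic acquired resistance and regulation of the innate immune response were among the terms on comp31941_c0 and not on the other two. For systemic acquired resistance this is a difference in the detail of the term, since the other two carried its salicylate-mediated form. GO terms and best hits were transferred from similar proteins and are no measurement in ramie.

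The PR-1 list, built from words in the annotation, held 12 unigenes, and 8 of them reached 10 reads when both libraries were added. A unigene was called when the 2-sided test of Audic and Claverie, which compares the reads of a pair of libraries and not the conditions, gave an adjusted p below 0.01 with at least a 2-fold difference in RPKM. Of the 12 unigenes, 1 was called higher in CH and 5 were called lower. Over all 43302 unigenes tested, 6.76% were called, 2.48% higher and 4.28% lower. Among the 23653 that reached 10 reads, the shares were 4.54% and 7.71%. The 3 chosen unigenes account for the 1 higher and for 2 of the 5 lower calls, so nothing is read from their count. The median log2 ratio was -1.63 over the 8 PR-1 unigenes and -1.41 over the 5 that were not chosen, beside -0.01 over all unigenes that reached 10 reads.

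**Figure D2:**
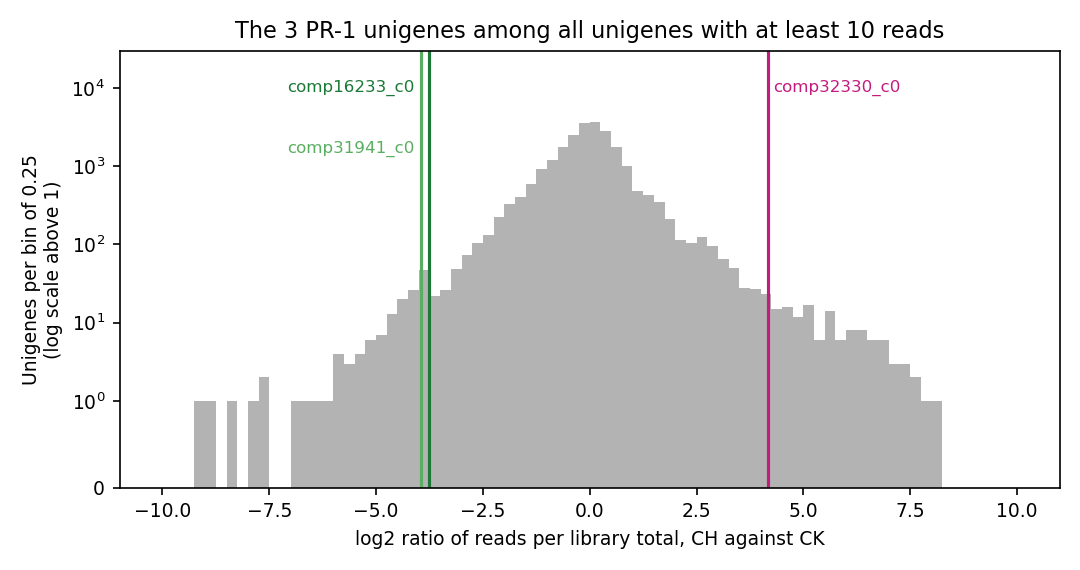
Number of unigenes (vertical, log scale above 1) by log2 ratio of reads per library total, CH against CK, for the 23653 unigenes that reached 10 reads in sum, with a library at 0 reads set at 3. The lines mark comp31941_c0 at -3.94, comp16233_c0 at -3.77 and comp32330_c0 at 4.18, in the thin tails on either side.

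The histogram of log2 ratios places the 3 unigenes among all others. By the ratio of CH to CK, comp32330_c0 was number 132 from the top of 23653 unigenes. From the bottom, comp31941_c0 was number 100 and comp16233_c0 number 120. These places describe how the unigenes were chosen and are no test.

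Of the 5 remaining PR-1 unigenes with enough reads, 3 were called lower in CH and none was called higher. Unigene comp31547_c0, annotated as PR-1 and as STS14, was covered by 135 reads in CK against 14 in CH, and its RPKM was 10.87 and 0.74. It was 14.6-fold lower in CH (8.40 to 27.4), and its reads per read of comp31941_c0 were 1.05 times as many in CH as in CK (0.471 to 2.30). It thus lay beside comp31941_c0 in both libraries, although its GO terms were those of comp16233_c0 and comp32330_c0.

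Unigene comp21094_c0, similar to STS14, a PR-1-like protein known from potato pistils, had 266 and 111 reads and an RPKM of 30.15 in CK and 8.24 in CH. It was 3.63-fold lower in CH (2.90 to 4.57). Unigene comp31131_c0, whose best hit was the same Ficus isoform 1 as that of comp16233_c0, had 77 and 44 reads and an RPKM of 7.29 and 2.73. It was 2.65-fold lower (1.81 to 3.93). Both were lower by smaller factors than comp16233_c0, with intervals that did not overlap with its interval of 11 to 17.2.

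The last 2 PR-1 unigenes with enough reads, comp30627_c0 and comp30627_c1, were short pieces of one assembled component, of 360 and 322 bp. Neither was called. comp30627_c0 had 34 and 75 reads, a ratio of CH to CK of 1.46 (0.960 to 2.25). comp30627_c1, annotated as a basic form of PR-1, had 34 and 42 reads, a ratio of 0.816 (0.507 to 1.32). Added up, their reads were 68 in CK against 117 in CH, 1.14 times as many per library total (0.836 to 1.56). The other 4 unigenes of the list were between 227 and 320 bp long and had 4 reads in each library in all, too few to read.

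The make-up of the PR-1 reads differed between the libraries more than their sum. All 12 unigenes together gave 1650 reads in CK against 2728 in CH. The share of comp16233_c0 was 49.8% in CK (exact 95% Clopper-Pearson interval 47.4 to 52.3) and 3.34% in CH (2.69 to 4.08). The share of comp32330_c0 was 5.15% in CK (4.14 to 6.33) and 85.3% in CH (84.0 to 86.6). The share of comp31941_c0 was 11.7% in CK (10.2 to 13.3) and 0.696% in CH (0.420 to 1.09). Reads in CK were thus spread over several PR-1 unigenes with comp16233_c0 in front, and reads in CH lay for the most part on comp32330_c0.

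**Figure D3:**
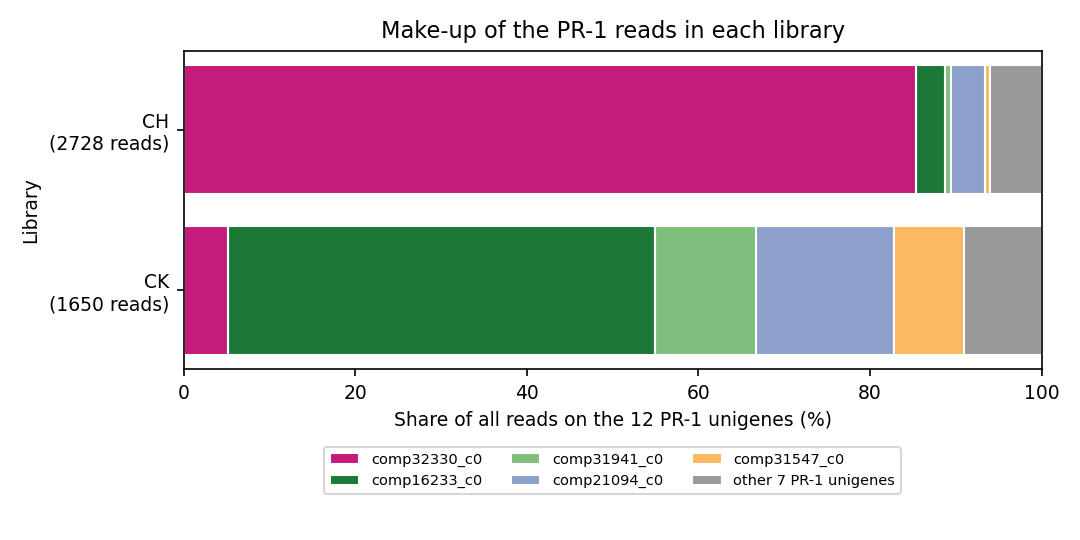
Share of all reads on the 12 PR-1 unigenes (horizontal, percent) held by each unigene in the CK library (1650 reads) and the CH library (2728 reads). comp16233_c0 holds 49.8% in CK and 3.34% in CH, and comp32330_c0 holds 5.15% in CK and 85.3% in CH.

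Per library total, the summed PR-1 reads were 1.09 times as many in CH as in CK (1.03 to 1.16), a log2 ratio of 0.13. Single unigenes decided this sum. Without comp32330_c0, the remaining PR-1 reads were 5.92-fold lower in CH (5.30 to 6.63). Without comp16233_c0, the sum was 2.10 times as large in CH (1.95 to 2.28), and without comp31941_c0 it was 1.23 times as large (1.15 to 1.31). The 9 PR-1 unigenes other than the chosen 3 gave 550 reads in CK against 290 in CH, 2.87-fold lower (2.49 to 3.32).

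Named unigenes with the levels nearest to each PR-1 unigene were found by the distance in log2 RPKM over the 2 libraries, among 16848 unigenes. With 2 libraries, such nearness says only that the levels are alike. Nearest to comp16233_c0 was comp16002_c0, a SAUR family protein of the auxin-induced 15A type, at a distance of 0.029 and with an RPKM of 61.3 in CK and 4.53 in CH. The next were comp30699_c0, a BURP domain protein, and comp34417_c0, similar to the lipid-transfer protein DIR1, which in Arabidopsis is needed for long-distance signalling in systemic acquired resistance. Nearest to comp31941_c0 were comp32676_c0, similar to a glucomannan mannosyltransferase that makes cell wall polysaccharide, at 0.27, and the PR-1 unigene comp31547_c0, at 0.36. No named unigene lay within 1 log2 unit of comp32330_c0, whereas 20 lay that near to comp16233_c0 and 16 to comp31941_c0. The nearest to comp32330_c0 were comp20917_c0, similar to a phospholipase C 3-like protein, at 1.07, comp34121_c0, a RING and CHY zinc finger protein, at 1.14, and comp34766_c1, similar to a bark storage protein, at 1.25.

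Other PR families, which include enzymes that break down fungal cell walls, were described from lists built by the same words in the annotation. Of 162 unigenes in these lists, 159 were tested, and 11 of them (6.92%) were called higher in CH and 12 (7.55%) lower. Over all unigenes tested 2.48% were called higher and 4.28% lower, and among those that reached 10 reads 4.54% and 7.71%. The list shares are over tested unigenes and compare with the former. Of the 162, 112 reached 10 reads, a larger part than over all unigenes. The median log2 ratio of the other PR families was -0.01, beside -1.41 for the 5 PR-1 unigenes that were not chosen and -0.01 for all unigenes. Among the 36 chitinases and related proteins (PR-3, PR-4, PR-8 and PR-11), 5 were called higher and 1 lower. The class I chitinase comp36619_c1 rose from 1841 to 32205 reads, 11.6-fold higher per library total (11 to 12.1), beside 18.1-fold for comp32330_c0. Among the 58 glucanases (PR-2), 1 was called higher and 6 lower, and the 1 was comp24978_c0, with 1211 and 9115 reads, 4.97-fold higher (4.68 to 5.28). Among the 29 thaumatin-like proteins (PR-5), 3 were called higher and 2 lower, and the osmotin-like comp34793_c0 was 3.35-fold higher (3.15 to 3.57). Among the 21 PR-10 and related unigenes, 1 was called higher and 1 lower, the latter being comp16111_c0, similar to MLP423, at 6.73-fold lower (6.06 to 7.49). Of the 18 defensins, thionins and snakins, 1 was called higher and 2 lower. The counts of the single families are too small to be read against the general shares.

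**Figure D4:**
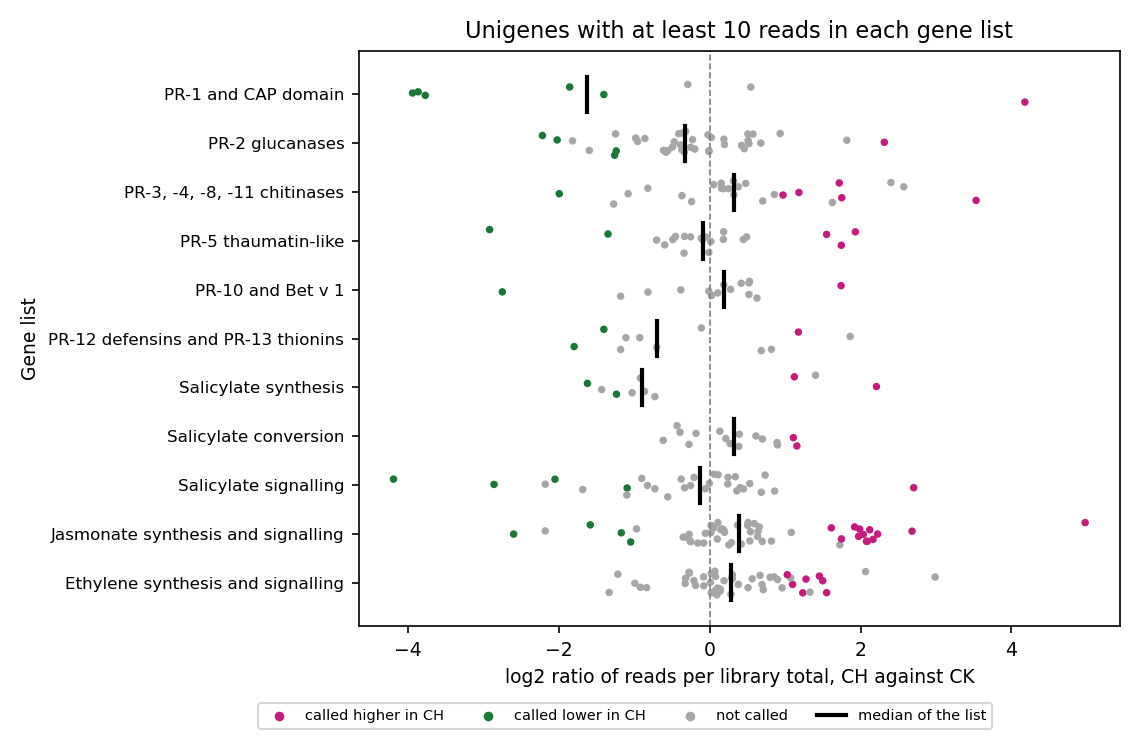
Log2 ratio of reads per library total, CH against CK (horizontal), of every unigene that reached 10 reads in the PR-1 list and 10 other lists, with the median of each list as a bar and calls in colour. The median of the PR-1 list, -1.63, includes the 3 unigenes chosen on these ratios and is -1.41 without them, and comp32330_c0 lies alone at 4.18 on the right.

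The salicylate pathway, for which PR-1 serves as a marker in Arabidopsis, was described from 3 lists with 68 unigenes in all. Of the 67 tested, 5 (7.46%) were called higher in CH and 6 (8.96%) lower, beside 2.48% and 4.28% of all unigenes tested. Of the 68, 56 reached 10 reads, a larger part than over all unigenes. The median log2 ratio of the 3 lists was -0.03. In synthesis, comp38540_c0, similar to isochorismate synthase, the main entry to salicylate in Arabidopsis, went from 234 reads in CK to 115 in CH, 3.08-fold lower (2.45 to 3.88). The phenylalanine ammonia-lyase unigene with most reads, comp27757_c0, had 3091 and 1984 reads and was 2.36-fold lower (2.23 to 2.50), while comp31590_c0 and comp32653_c0, annotated as the same enzyme, were called higher from 5 and 24 reads in CK. Among enzymes that convert salicylate, the glucosyltransferase comp20019_c0 was 2.23-fold higher (1.88 to 2.64) and the methyltransferase comp25540_c0 2.16-fold higher (1.63 to 2.89). The other 16 of the 18 unigenes listed were not called. Among them, the glucosyltransferases comp31459_c0 and comp29304_c0 had ratios of 0.760 (0.609 to 0.950) and 1.53 (0.829 to 2.94). The methyltransferases comp32473_c0 and comp25614_c0 had ratios of 0.651 (0.536 to 0.792) and 1.10 (0.754 to 1.61).

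In signalling, the NPR3-like, EDS1-like and TGA-like unigenes were called in neither direction, apart from 1 TGA factor. The receptor-like comp33162_c0, similar to NPR3, was covered by 6226 reads in CK against 13606 in CH, at a ratio of 1.44 (1.40 to 1.49). A further NPR3-like unigene, comp33006_c0, had a ratio of 1.08 (0.982 to 1.19), and the EDS1-like comp42942_c0 one of 1.28 (1.14 to 1.45). The TGA3-like comp25756_c0, of a family of factors that bind the PR-1 promoter in Arabidopsis, had 24 and 5 reads and was 7.26-fold lower (2.72 to 24.4). The DIR1-like comp34417_c0 had 629 and 52 reads and was 18.3-fold lower (13.8 to 24.8), and a further one, comp28421_c0, was 4.15-fold lower (3.37 to 5.14). Unigene comp29252_c0, similar to FMO1, an enzyme of systemic acquired resistance in Arabidopsis, had 7 and 69 reads and was 6.51-fold higher (3.0 to 16.8). Other unigenes annotated as FMO1 were not called. Of these, comp32944_c0 had 7965 and 14220 reads, a ratio of 1.18 (1.15 to 1.21). With 10 and 12 reads, comp28837_c0 had a ratio of 0.793 (0.314 to 2.05). Among the NPR3-like, EDS1-like and TGA-like unigenes, the highest ratio was 1.81 (1.72 to 1.91), of the TGA-1B-like comp36982_c0, beside 18.1 for comp32330_c0.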

How the data were processed

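Trinity was used by the authors for the assembly, and 1 table per library was deposited. In it the authors give an expected count per unigene, not normalized, and the deposited RPKM and TPM, the last used only as an alternative. Lengths are the authors' averages over transcripts, and other columns hold the deposited annotation. For the mapping and counting program, the sources used here give no name; the submitters' processing notes name DESeq without a version.

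Each expected count was rounded to a whole number. The 2-sided Audic-Claverie test, computed with scipy 1.17.1, was run on the 43302 unigenes with at least 1 read, with Benjamini-Hochberg adjustment. It was tested on simulated data, where it made no false call with counting error alone but made false calls once a spread between samples was added. Ratios are of counts per library total, with exact 95% Clopper-Pearson intervals, and a library at 0 was set at 3 reads. Alternatives were a binomial test, edgeR 4.0.16 exact tests in which a coefficient of variation of 0.2 or 0.4 was assumed, TMM and median-of-ratios scaling, other thresholds, filters and pseudocounts, and sums without each chosen unigene.

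The 3 unigenes and all lists were chosen with earlier results of these data known. Named unigenes are the chosen 3, the other PR-1 unigenes with at least 10 reads, up to 3 called in each direction per list by the interval bound nearest to 1, and the 3 nearest in level, of which 1 is not reported here. The NPR3-like, EDS1-like and TGA-1B-like unigenes were named for their role after their values were seen. So were the uncalled FMO1-like unigenes and the uncalled salicylate glucosyltransferases and methyltransferases, for their annotation. Accidental word matches were removed by name after the annotation was read, 4 of 16 from the PR-1 list. The lists from GO terms were added after the annotation of the 3 was read.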

Additional observations from a re-analysis of the deposited data

How the results depend on the processing

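No paired analysis was possible because each group has 1 library, and for the same reason no replicate could be left out. The log2 ratios of comp16233_c0 and comp32330_c0 moved by less than their counting intervals under every scaling and pseudocount tried, and that of comp31941_c0 was -2.94 with a pseudocount of 1 on RPKM. Scaling by TMM raised all log2 ratios by 0.05 and scaling by the median of ratios by 0.08. The log2 ratio of the summed PR-1 reads, 0.13, was 1.07 without comp16233_c0, 0.30 without comp31941_c0 and -2.57 without comp32330_c0, a change of direction.

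The 3 chosen unigenes were picked on these counts, so that their calls persist is no sign of stability. An assumed coefficient of variation of 0.4 left 0 PR-1 unigenes called lower in place of 5, so the calls of comp16233_c0 and comp31941_c0 were lost, and a 4-fold threshold left 3. Over all unigenes, the 1075 higher and 1854 lower calls became 495 and 579 with a coefficient of variation of 0.2, 134 and 52 with 0.4, and 585 and 654 with a 4-fold threshold. With at least 4 reads required in each library, an alternative chosen after seeing the data, 715 higher calls were left. For the other PR families, 11 higher and 12 lower calls became 5 and 3, 0 and 0, and 2 and 7 under the same 3 settings in that order. For the salicylate lists, 5 and 6 became 1 and 2, 0 and 1, and 2 and 3, and an adjusted p below 0.001 left 3 higher. For the jasmonate and ethylene lists, 20 and 4 became 11 and 1, 1 and 0, and 8 and 1. The spread between plants was not measured, so which assumed value applies cannot be told from these data. The 19 reads of comp31941_c0 in CH limit its ratio to between 9.58-fold and 26.1-fold lower.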

Other observations

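Jasmonate and ethylene, the hormones to which basic PR-1 forms respond in tobacco, were described from lists with 129 unigenes. Of the 125 tested, 20 (16%) were called higher in CH and 4 (3.2%) lower, beside 2.48% and 4.28% of all unigenes tested. Among all unigenes that reached 10 reads, the shares were 4.54% and 7.71%. Of the 129, 101 reached 10 reads, a larger part than over all unigenes. The median log2 ratio of these 101 was 0.29. Among the jasmonate unigenes, 13 of 61 were called higher and 4 lower. The lipoxygenase comp31063_c0 is of the chloroplast 13S type that starts jasmonate synthesis. It went from 6 reads in CK to 286 in CH, 31.5-fold higher (14.3 to 86.5). Other 13S lipoxygenases were called lower. Annotated as the same enzyme, comp37039_c0 had 1463 and 982 reads, a ratio of CH to CK of 0.444 (0.409 to 0.481). A further chloroplast 13S type, comp25237_c0, had 224 and 113 reads, a ratio of 0.333 (0.263 to 0.420). Lipoxygenases annotated as 9S type were called higher with more reads. Of these, comp39017_c0 had 22781 and 161198 reads and was 4.68-fold higher (4.61 to 4.74). With 2039 and 19799 reads, comp29491_c1 was 6.42-fold higher (6.13 to 6.72). The jasmonate methyltransferase-like comp35473_c0 had 453 and 113 reads and was 6.07-fold lower (4.93 to 7.52). Among the 68 ethylene unigenes, 7 were called higher and 0 lower by the Audic-Claverie test, and none of the 7 calls was left where a coefficient of variation of 0.2 or 0.4 was assumed or a 4-fold threshold was used. The EIN3-binding F-box protein comp37931_c3, which restrains ethylene signalling in Arabidopsis, was 2.04-fold higher (1.99 to 2.09). Unigenes with a best Swiss-Prot hit to 1-aminocyclopropane-1-carboxylate oxidase or its homolog were also called higher. Of these, comp30277_c0 had 119 and 436 reads, 2.42-fold higher (1.97 to 2.99). With 28 and 116 reads, comp34923_c0 was 2.74-fold higher (1.80 to 4.30).

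The GO term for salicylate-mediated systemic acquired resistance, which comp16233_c0 and comp32330_c0 carry, was found on 622 unigenes. Of these, 433 reached 10 reads, as did 23653 of all 43302 unigenes tested, so the list was better covered. Of the 600 tested, 23 (3.83%) were called higher in CH and 48 (8.0%) lower, beside 2.48% and 4.28% of all unigenes tested. The median log2 ratio of the list was -0.10. The 23 higher and 48 lower calls became 6 and 16 with an assumed coefficient of variation of 0.2 and 2 and 3 with 0.4. The GO term for jasmonate-mediated signalling, which comp16233_c0 and comp32330_c0 also carry, was found on 750 unigenes, of which 527 reached 10 reads. Of the 725 tested, 36 (4.97%) were called higher in CH and 54 (7.45%) lower, with a median log2 ratio of -0.08. Unlike the jasmonate list built from words, it thus held more lower than higher calls. These became 11 and 15 with 0.2 and 2 and 2 with 0.4. In the salicylate GO list, comp32330_c0 was among the 3 with the strongest higher calls, beside comp24833_c0, similar to a polygalacturonase inhibitor. The latter had 13 and 2079 reads and was 106-fold higher (61.7 to 199). The strongest lower call was comp32229_c0, a chloroplast carbonic anhydrase, a protein known to bind salicylate in tobacco. It had 61934 reads in CK against 3104 in CH and was 30.2-fold lower (29.1 to 31.3). Next came comp24846_c0, similar to a chloroplast cytochrome b6-f subunit, with 3707 and 337 reads, 16.6-fold lower (14.9 to 18.7). Both are chloroplast proteins, and rubisco and light-harvesting unigenes also held smaller shares of reads in CH. The part of these shares in the lower calls was not tested.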
